A study of Bos taurus with 20 samples.

Results

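The comparison described here set the treated glands against the challenged, untreated gland (CNT) of the same 2 cows, 24 h post challenge with Escherichia coli. It used 6 of the 20 arrays of the study, 4 from treated glands and 2 from CNT glands, and the not challenged control glands (NC) of both cows gave the background level on 2 further arrays. The cows, labelled cow8620 and cow8609, were Holstein Friesian animals in mid lactation. Each had its left front gland challenged with 100 cfu of E. coli and left untreated (CNT), its right front gland left unchallenged (NC), and both rear glands challenged with the same dose and treated through the teat at 4 h and 12 h. One rear gland received 300 mg of cefapirin, a cephalosporin antibiotic (CF), and the other received 300 mg of cefapirin with 20 mg of prednisolone, a synthetic glucocorticoid (CFPD). By the labels, CF was the left rear gland of cow8620 and the right rear gland of cow8609. Both products were pooled as 1 treated group of 4 glands, so no result below rests on which rear gland received which product. The question was how infected udder tissue that had been infused 2 times differed from infected tissue that had not.

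Some limits of the design apply throughout. The treated glands were the rear glands and the CNT glands the left front ones in both cows, so treatment and position in the udder cannot be told apart. The treated glands of a cow also share that cow, and p-values over 4 treated arrays therefore measure in part the spread between glands of 1 animal. By the labels the tissue came from the cisternal region, whereas the study's methods name the mid parenchyma. Each array was hybridised with RNA of a piece of whole tissue, in which fewer cells of a type and less RNA per cell cannot be told apart.

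Mammary epithelial cells sense lipopolysaccharide of E. coli through Toll-like receptors and NF-kB, and answer with chemokines that draw neutrophils from blood into milk, with acute phase proteins and with antimicrobial peptides. Neutrophils that arrive bring their own transcripts, among them those of CXC chemokine receptors, calprotectin subunits and the oxidase that kills engulfed bacteria. During mastitis the synthesis of milk, and of milk fat in particular, declines.

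All levels are log2 values of the Affymetrix Bovine Genome Array as deposited, on which a difference of 1 is a doubling. Array medians ran from 7.12 to 7.16. A probe set was called when its limma p-value, adjusted by Benjamini-Hochberg over the 13004 probe sets tested, was under 0.05 and its log2 fold change was at least 1 in size. The secretory tissue was present in every gland by its defining markers. The caseins CSN1S1, CSN2 and CSN3 and the lactose synthase subunit LALBA lay between 14.56 and 15.53 on each of the 8 arrays.

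Treated glands had 430 probe sets called lower than CNT glands (3.31% of those tested) and 163 called higher (1.25%). The lower probe sets carried 288 different gene symbols and the higher ones 86. Falls were also larger, with 145 probe sets down by 2 or more on the log2 scale and 24 by 4 or more, against 22 and 1 among the rises. All 593 called probe sets differed in the same direction in 4 of 4 treated glands, and none overlapped between treated and CNT arrays, as was also the case for 20.9% (lower) and 17.8% (higher) of all probe sets tested. With the treated glands of each cow averaged, so that each group held 1 value per cow, 92 probe sets were called, all of them among the 593. The number was 249 without the CNT gland of cow8620 and 75 without cow8620.

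Of 93 called genes that the naming rule picked, 22 kept the call when the treated glands of a cow were averaged. These were RUBCNL, SAA3, S100A8, IL1R2, CCL4, CCL19, CCL5, IL1RN, CFB, VCAM1, MX1, PLAU, TIMP1, MT1A, SLC6A14, TNFRSF6B, HPRT1 and LBP among the genes that fell, and PHYHIPL, SLC7A5, PIR and CD36 among those that rose. CCL5, CCL19, IL1RN, IL1R2 and RUBCNL also kept it with any 1 array or either cow left out. The other 88 lost it in at least 1 of these 11 settings. Of the 430 probe sets called lower, 110 had passed the filter on low values (above the array median on at least 2 of the 8 arrays) through the CNT arrays alone and so had to differ. By their main probe sets 17 of the 93 genes were such cases, namely CXCR1, RUBCNL, PLEK, IL1R2, DEFB10, FCER1G, NCF1, CD69, CCL19, CD55, SOCS3, ITGAL, VCAM1, MMP19, TNC, CASP1 and RSAD2, and their calls were also made without the filter. The called second probe sets of CD40, CCL3 and DEFB4A were such cases as well.

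The genes that fell most were those of neutrophils, antimicrobial peptides and acute phase proteins. CXCR1, a receptor of neutrophils for CXCL8, stood at 12.56 in the CNT gland of cow8620 and 9.72 in that of cow8609. Its levels were 5.48 and 5.60 in the treated glands of cow8620, and 5.72 and 5.30 in those of cow8609. The treated glands were thus far below both CNT glands and close to the NC glands, at 5.58 and 5.01 (log2 fold change -5.61, standard error 0.64, adjusted p = 0.00364). RUBCNL, a regulator of autophagy, was at 10.56 and 8.39 in CNT glands and between 4.13 and 4.53 in the treated ones, and fell by 5.11. PLEK, a protein kinase C substrate of leukocytes and platelets, fell by 4.65.

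**Figure D1:**
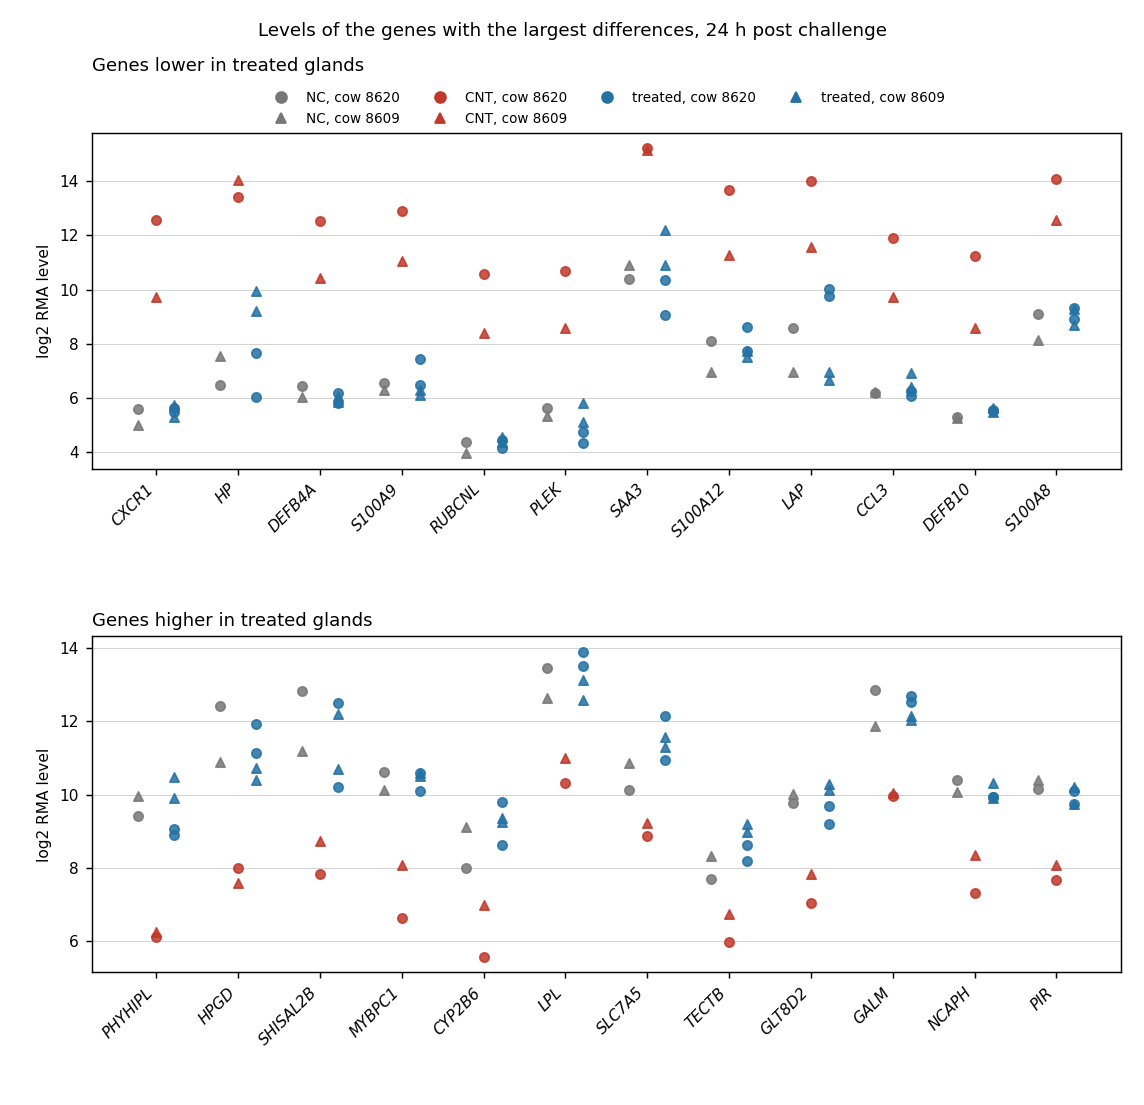
Log2 levels on the 8 arrays of 24 h for the 12 genes with the largest falls (top) and the 12 with the largest rises (bottom); each point is 1 gland, the colour gives the group and the shape the cow, and a gene with several probe sets is drawn by the one with the largest difference. For each of these genes the CNT glands lie apart from all 4 treated glands, whose mean is nearer to that of the NC glands than to that of the CNT glands, and for CXCR1 the CNT glands are at 12.56 and 9.72.

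All 7 neutrophil markers tested were called lower, with a median log2 fold change of -4.05, against -0.01 over all probe sets tested. Of the 7, 4 passed the filter on low values only through the CNT arrays and so had to differ. Without the filter, 7 of the 9 markers on the array were called. S100A8, a calprotectin subunit, was at 14.09 and 12.57 in CNT glands and at 8.89, 9.32, 9.26 and 8.70 in treated glands (log2 fold change -4.29, standard error 0.43, adjusted p = 0.00265). Its partner S100A9 fell by 5.40 with 1 probe set and by 3.06 with the other, and S100A12 fell by 4.58. IL1R2, a decoy receptor for interleukin-1, was at 9.84 and 8.61 in CNT glands and between 4.99 and 5.46 in treated ones (-4.05, standard error 0.31, adjusted p = 0.000833).

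The mean level of the 7 neutrophil markers was 11.7 and 9.87 in CNT glands, 6.72 to 7.02 in treated glands and 6.97 and 6.49 in NC glands. The treated and NC ranges overlapped, and the CNT gland of cow8620 was above that of cow8609. Among pan-leukocyte genes 10 of 14 were called lower (median -1.92) and none higher, but with the treated glands of a cow averaged 0 of 14 were, against 3 of 7 neutrophil markers. Among them were CD48 (-3.23), CD53 (-2.98), CORO1A (-2.57) and FCER1G, the shared signal chain of Fc receptors (-2.54). PTPRC, the CD45 antigen of all leukocytes, was at 10.63 in the CNT gland of cow8620 and 9.0 in that of cow8609, and between 7.25 and 8.33 in treated glands.

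Phagocyte genes moved with them. Of 6 subunits of the NADPH oxidase, which makes superoxide, 5 were called lower and 1 of the 6 passed the filter through the CNT arrays alone. This was NCF1, which was at 11.38 and 9.01 in CNT glands and between 5.93 and 6.21 in treated glands and fell by 4.12, and CYBB and CYBA fell by 1.91 and 1.94. NCF1, CYBB, CYBA and the subunit RAC2 lost the call with the treated glands of a cow averaged. Of 11 monocyte and macrophage markers, 4 were called lower (0 with averaging), led by the lysosomal protein CD68 (-3.79) and cathepsin S, CTSS (-1.72). The receptor CSF1R, which defines macrophages, did not reach the fold required (-0.90, adjusted p = 0.0262).

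Lymphocyte and vessel markers gave few calls. Of 12 T and NK cell markers 1 was called, the early activation antigen CD69 (-2.53), while CD3E of T cells ranged from 7.48 to 8.00 in treated glands and from 7.73 to 8.06 in CNT glands. None of the 2 B and plasma cell genes, 8 endothelial markers or 3 adipocyte markers was called, and the immunoglobulin chain IGHM differed by -0.05 with a standard error of 0.36. How far the fall in leukocyte transcripts bears on the other falls below was not tested.

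Of 13 acute phase and antimicrobial genes tested 9 were called lower (median -2.58), and 2 of the 13 passed the filter only through the CNT arrays. Without the filter, 8 of the 22 on the array were called lower, with a median of -0.39, so the fall did not run through the whole list. Haptoglobin, HP, which binds free haemoglobin, was at 13.43 and 14.06 in CNT glands. It was at 6.01 and 7.66 in the treated glands of cow8620 and at 9.93 and 9.19 in those of cow8609 (log2 fold change -5.55, standard error 0.96, adjusted p = 0.0134). The treated glands of cow8609 therefore stayed above both NC glands, at 6.48 and 7.55. SAA3, the mammary serum amyloid, stood at 15.24 and 15.18 in CNT glands and from 9.06 to 12.21 in treated ones, and fell by 4.58. Its CNT values lie near the highest value on these arrays, 15.60, and whether they were saturated was not tested. LBP, which hands lipopolysaccharide to CD14, fell by 1.24.

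The beta-defensins DEFB4A, DEFB10 and LAP, peptides that disrupt bacterial membranes, were among the largest falls. DEFB4A fell by 5.38 and 5.52 with its 2 probe sets, and DEFB10 fell by 4.38. LAP was at 14.02 and 11.57 in CNT glands, at 10.03 and 9.75 in the treated glands of cow8620 and at 6.95 and 6.64 in those of cow8609 (-4.45, standard error 1.14, adjusted p = 0.0449). For LAP the treated glands differed more between the cows than within them. Lactoferrin, LTF, and the protease inhibitor SLPI differed by -0.46 and -0.58 and were not called.

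Other genes had more similar levels in both CNT glands than the leukocyte genes. The complement activator CFB was at 13.45 and 13.00 in CNT glands and at 8.78, 9.35, 9.14 and 8.96 in treated glands (-4.17, standard error 0.20, adjusted p = 0.000157). The chemokine CCL5 was at 9.53 and 9.77 in CNT glands and between 7.43 and 7.61 in treated glands (-2.14, standard error 0.15, adjusted p = 0.000535). CCL19, which guides dendritic cells and T cells, was at 8.13 and 8.35 against 5.85 to 6.16 (-2.22, standard error 0.15, adjusted p = 0.00041). For these 3 genes the treated glands lay within 1 of the NC glands.

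Of 21 chemokine ligands 5 were called lower and none higher, with a median of -0.93. Without the filter on low values it was 5 of the 26 on the array, with a median of -0.56. CCL4 fell by 2.57, and CXCL5, a neutrophil attractant, fell by 2.47. CCL3 fell by 4.42 with 1 probe set, at 11.92 and 9.72 in CNT glands and 6.07 to 6.91 in treated ones, and differed by -0.93 (adjusted p = 0.0898) with the other. Of 7 chemokine receptors 3 were called, CXCR1, CXCR4 (-1.72) and the scavenging receptor ACKR1 (-1.40). Without the filter it was 3 of the 12 on the array, with a median of 0.03. CCL8 showed no call (0.32, adjusted p = 0.637). No probe set carried CCR1 or MAP3K8 as its single symbol in the annotation used, and IL12A was on the array but did not pass the filter on low values.

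CXCL8, CXCL2 and CCL2, chemokines that start the influx of neutrophils and monocytes, were not called, and 1 treated gland stood apart in each. CXCL8 was at 12.01 and 11.39 in CNT glands. It was at 7.36 and 7.17 in the treated glands of cow8620, at 7.03 in the right rear gland of cow8609 and at 12.21 in the left rear gland of that cow (log2 fold change -3.26, standard error 1.37, adjusted p = 0.167). The other 3 treated glands thus lay near the NC level of 7.23 and 5.71, and the left rear gland of cow8609 lay above both CNT glands. CXCL2 gave the same picture, with 5.07, 6.35 and 5.36 in those 3 glands and 11.16 in the left rear gland of cow8609, against 11.12 and 10.57 in CNT glands. CCL2 was at 8.60, 8.99 and 8.70 in the 3 glands and 10.96 in that one.

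That gland stood apart over a set of genes. At 58 probe sets it was 1 or more above all 3 other treated glands, whereas each of the others was so at 5 or 6. At 17 probe sets the gap was 2 or more, and no other treated gland had 1 such probe set. At 50 of the 58 it reached or passed the lower of the CNT glands. The 58 were 0.446% of all probe sets tested. Of 21 chemokine ligands 6 were among them, of 15 genes of the IL-6, STAT3 and SOCS list 3 and of 29 of the Toll-like receptor and NF-kB list 3.

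Genes of the left rear gland of cow8609 that were chosen after their values were seen include CCL20, IL6, ICAM1 and BIRC3. The chemokine CCL20 was at 10.18 there and between 7.06 and 7.16 in the other treated glands. IL6, the inducer of the acute phase response, was at 7.88 against 4.64 to 5.18, and the adhesion molecule ICAM1 was at 10.24 against 7.57 to 7.95. The NF-kB inhibitor NFKBIA, itself a target of NF-kB, was at 13.01 against 10.62 to 11.07, and BIRC3, an inhibitor of cell death, at 11.94 against 9.85 to 10.43. All of these reached the CNT range there. Of 4 probe sets for the chemokine GRO1, 3 showed the same gap, with 10.94, 10.98 and 13.27 in that gland, and the remaining one, at 13.14 there, ranged from 12.52 to 12.75 in the other treated glands.

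In the same gland leukocyte genes were low. CXCR1 was at 5.72, S100A8 at 9.26 and CD48 at 7.99, beside 5.30 to 5.60, 8.70 to 9.32 and 7.54 to 8.16 in the other treated glands. Without this gland the log2 fold changes were -4.51 for CXCL8, -5.25 for CXCL2, -2.80 for CCL2, -1.90 for NFKBIA and -1.28 for the receptor TLR2, and all 5 were called. The count of called probe sets was then 563, and among the genes named here LAP, AIF1, CXCR4, ITGB2, ICAM3, RAC2, IFITM1, FN1, GSR and PDIA4 were no longer called. This gland was singled out by its high values for genes such as CXCL8 and CXCL2. The 5 calls gained without it follow in part from that choice.

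**Figure D2:**
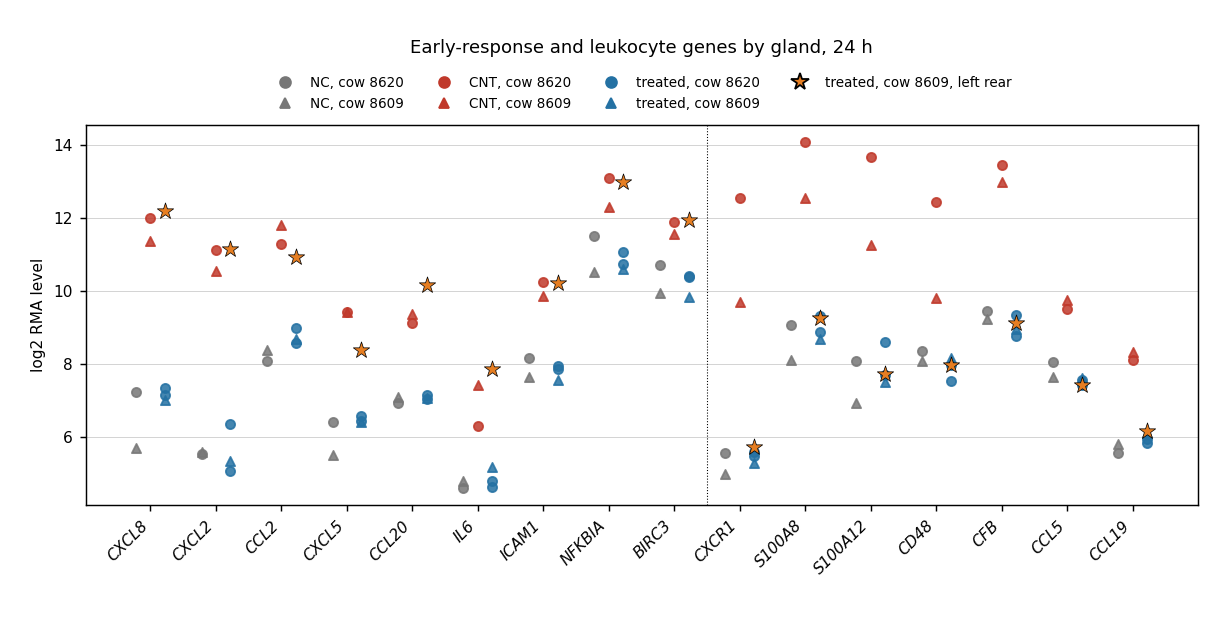
Log2 levels of 16 genes on the 8 arrays of 24 h, with the left rear gland of cow8609 drawn as a star; left of the dotted line are chemokines, cytokines and NF-kB targets, right of it genes of leukocytes, complement and other chemokines. The star lies with the CNT glands or nearer to them for the left group (CXCL8 at 12.21) and with the other treated glands for the right group (CXCR1 at 5.72).

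Cytokine genes outside the chemokines gave 7 called lower and 1 called higher of 22. Without the filter on low values 8 were called lower and 1 higher of the 40 on the array, with a median of -0.39. IL1RN, the antagonist of the interleukin-1 receptor, was at 11.68 and 10.87 in CNT glands and at 7.10, 7.15, 7.41 and 6.93 in treated glands (-4.13, standard error 0.24, adjusted p = 0.000355). The groups were far apart, and the NC glands were at 7.42 and 7.07. Lymphotoxin beta, LTB, fell by 2.83, and the receptor chain IL1RAP fell by 2.38. Follistatin, FST, an activin-binding protein, rose by 1.62.

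Signal genes upstream of these gave fewer calls. None of 29 genes of the Toll-like receptor and NF-kB list was called by its main probe set (median -0.32), where NFKBIA differed by -1.35 (adjusted p = 0.22) and TLR2 by -1.04 (adjusted p = 0.084). CD40, a member of this list, was called with its second probe set (-2.87, standard error 0.13, adjusted p = 0.000157), whose levels were 8.83 and 8.67 in CNT glands and 5.70 to 6.00 in treated ones, and not with its main one (-0.81). In the IL-6, STAT3 and SOCS list 2 of 15 genes were called, the cytokine signal inhibitor SOCS3 (-2.48) and the receptor IL6R (-1.92).

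Complement, adhesion and interferon genes fell in part. Besides CFB, the complement genes CD55, which protects cells from complement (-3.96), and C4BPA (-1.78) were called lower among 19, and C6 of the membrane attack complex was called higher (1.57). Of 16 adhesion genes 6 were called lower, and 5 of the 20 on the array without the filter, among them ITGB2 and ITGAL, the chains of the integrin LFA-1 (-2.05 and -1.76). VCAM1, which leukocytes bind on vessel walls, was at 8.22 and 8.07 in CNT glands and between 6.44 and 6.72 in treated ones (-1.60, standard error 0.12, adjusted p = 0.000833). Of 23 interferon-stimulated genes 6 were called lower and none higher. MX1, an antiviral GTPase, fell by 2.45, and ISG15 fell by 2.56.

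**Figure D3:**
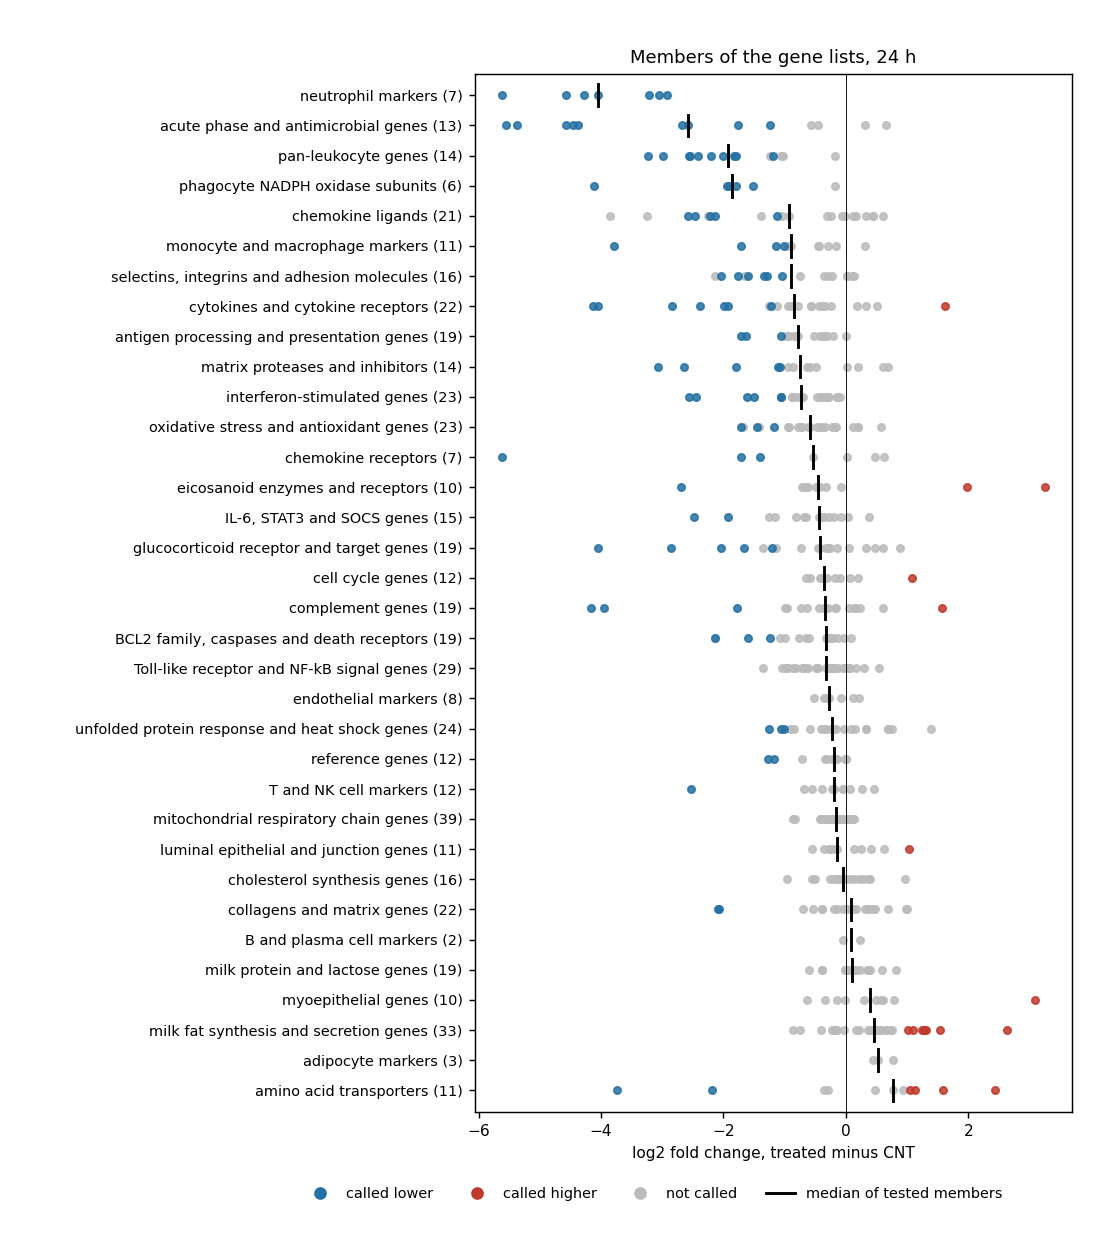
Log2 fold change (treated minus CNT, 24 h) of each tested member of the gene lists, 1 row per list with the number tested in brackets; blue points were called lower, red called higher, grey not called, and the bar is the list's median. Neutrophil markers lie furthest left (median -4.05), and the milk fat list holds 8 members called higher and none called lower.

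Among the lists, those of milk fat, of amino acid transporters and of eicosanoids held most of the genes called higher, 8, 4 and 2 of them. Of 33 genes of milk fat synthesis and secretion 8 were called higher and none lower (median 0.46), but CD36 was the only one still called with the treated glands of a cow averaged. The lipoprotein lipase gene LPL, whose enzyme supplies the gland with fatty acids out of blood fat, was at 10.33 and 11.001 in CNT glands and at 13.90, 13.53, 12.60 and 13.14 in treated glands (log2 fold change 2.62, standard error 0.39, adjusted p = 0.00765). The treated glands were all above both CNT glands. CD36, which takes up fatty acids and is part of the milk fat globule membrane, was at 12.82 and 12.90 in CNT glands and between 14.06 and 14.19 in treated ones (1.28, standard error 0.11, adjusted p = 0.00126). Butyrophilin, BTN1A1, which is needed for the release of fat droplets, rose by 1.31, and GPAM, which starts triglyceride synthesis, by 1.54.

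Amino acid transporters moved in both directions, with 4 of 11 called higher and 2 called lower. SLC7A5, the large neutral amino acid carrier, was at 8.87 and 9.24 in CNT glands and at 12.14, 10.96, 11.57 and 11.29 in treated ones (2.43, standard error 0.33, adjusted p = 0.00623). All 4 treated glands were also above the NC glands, at 10.14 and 10.86. SLC1A4 rose by 1.59 with its main probe set and was not called with its second (0.91, adjusted p = 0.0953). SLC6A14 fell by 3.74, from 11.49 and 10.72 in CNT glands to between 6.53 and 8.01, and SLC7A7 fell by 2.19.

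Of 10 eicosanoid genes 2 were called higher and 1 lower. HPGD, the enzyme that inactivates prostaglandins, was at 8.01 and 7.60 in CNT glands and at 11.14, 11.93, 10.41 and 10.73 in treated glands (3.25, standard error 0.49, adjusted p = 0.00865), and its second probe set rose by 2.53. ALOX15, a lipoxygenase, rose by 1.98. ALOX5AP, which leukocytes need to make leukotrienes, fell by 2.70. By their main probe sets HPGD, ALOX15 and ALOX5AP lost the call with the treated glands of a cow averaged.

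Other genes with large rises were mostly outside the lists. PHYHIPL was at 6.11 and 6.26 in CNT glands and at 8.91, 9.07, 9.91 and 10.50 in treated glands (3.41, standard error 0.42, adjusted p = 0.00456). MYBPC1, a myosin-binding protein counted here among myoepithelial genes, rose by 3.09 and was the only one of 10 in that list that was called. The cytochrome CYP2B6 rose by 2.98, the galactose mutarotase GALM by 2.34, the condensin subunit NCAPH by 2.19 and the nuclear protein PIR by 1.97. SHISAL2B, TECTB and GLT8D2 rose by 3.11, 2.40 and 2.38. The largest rise of all, 4.64, was that of a probe set with no gene symbol, at 2.83 and 2.90 in CNT glands and 6.95 to 8.06 in treated ones. On both CNT arrays this probe set, PHYHIPL, CYP2B6, TECTB and the second probe set of HPGD were below the array median. They passed the filter on low values through treated or NC arrays alone, so that higher levels in treated glands were in part fixed by the filter.

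Milk protein transcripts did not differ by a called amount. None of 19 genes of milk protein and lactose synthesis was called (median 0.10). CSN2 differed by 0.11 with a standard error of 0.11, CSN3 by less than its standard error, and LALBA by 0.17 with a standard error of 0.11. The caseins also lay near the highest value on the arrays. The luminal keratin KRT19 was called higher (1.03), the only one of 11 luminal and junction genes, while KRT18 and the myoepithelial actin ACTA2 differed by -0.28 and -0.02.

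Set against the unchallenged glands, the treated glands gave no call. None of the 13004 probe sets was called (0%), 322 had an unadjusted p under 0.05 in limma (2.48%; 920 or 7.07% with the cow as a fixed block and 713 or 5.48% with it as a random block), and the smallest adjusted p was 0.9999. Of the 430 probe sets lower than CNT, the treated mean was within 1 of the NC mean in 426, and of the 163 higher ones in 161. Over all tested probe sets the treated mean was 1 or more from NC in 22, and 1 or more from CNT in 786. Among the genes named, HP was 1.19 and CXCL8 1.97 above NC, the latter through the left rear gland of cow8609. With 2 NC arrays a difference can be missed, and the absence of calls does not show that treated and NC glands were alike.

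The cows differed in the size of the difference. Of the 430 probe sets called lower, 345 fell further in cow8620, with a median of -1.85 against -1.34 in cow8609. Of the 163 called higher, 129 rose further in cow8620, with medians of 1.53 and 1.18. Pan-leukocyte genes gave a median of -2.86 in cow8620 and -1.18 in cow8609, and all 14 fell further in the former. Across the 13004 probe sets, which are not independent, the difference from CNT in one cow had a Pearson r of 0.71 with that in the other, where all values of a cow share its CNT array. The treated glands of a cow differed from each other with an SD over probe sets of 0.246 in cow8620 and 0.282 in cow8609, less than the SD of the difference from CNT, 0.715 and 0.522.

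**Figure D4:**
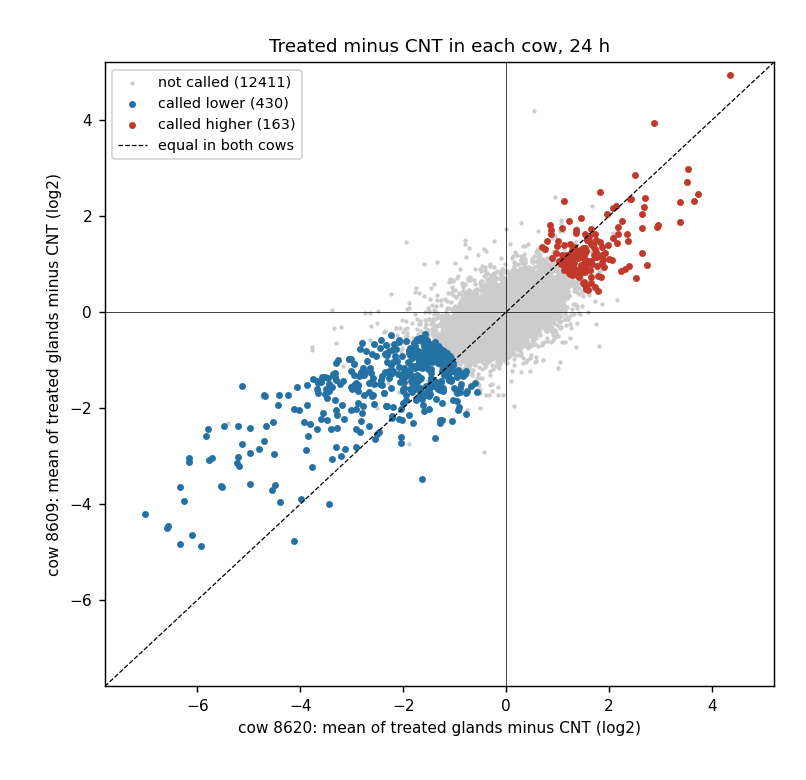
Mean of the treated glands minus the CNT gland (log2) in cow8620 (horizontal axis) and cow8609 (vertical axis), 1 point per probe set tested, blue for those called lower, red for those called higher and grey for the rest. Points called lower lie mostly above the dashed line of equality, since 345 of 430 fell further in cow8620.

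Finally, the difference between treated and CNT glands at 24 h was set against that at 48 h, measured after further infusions in 3 other cows with 6 treated and 3 CNT glands. Of 13873 probe sets tested over all 20 arrays 18 were called (0.13%), 6 with a less negative difference at 48 h and 12 with a lower one, and 1217 had an unadjusted p under 0.05 (8.77%). IL1R2 differed by -4.05 at 24 h and by -1.78 at 48 h (difference 2.27, standard error 0.34, adjusted p = 0.0143). DEFB10 differed by -4.38 and by -1.07 (difference 3.32, adjusted p = 0.0311). The values were -2.87 and -1.29 for the second probe set of CD40, and -2.92 and -0.94 for resistin, RETN, another neutrophil marker. The main probe set of CD40 was not called in this comparison. On treated and NC arrays of 48 h IL1R2, DEFB10, CD40 and RETN were at most 6.57 by these probe sets. They passed the filter on low values through CNT arrays alone, so that lower levels in treated glands were in part fixed by the filter. Their calls were also made without it.

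In the other direction C6 was higher in treated glands at 24 h, by 1.57, and at -1.88 at 48 h (difference -3.44, standard error 0.54, adjusted p = 0.016). Its NC glands were at 10.30 and 9.24 at 24 h and between 5.72 and 6.09 at 48 h. Treated glands had means of 9.80 at 24 h and 6.04 at 48 h, and CNT glands 8.23 and 7.91. The levels of NC and treated glands thus differed more between the 2 sets of cows than those of CNT glands. DZIP3 was 1.67 higher at 24 h and at -0.87 at 48 h (difference -2.54, adjusted p = 0.00576). At 48 h its levels were at most 6.57 on CNT, 5.77 on treated and 5.62 on NC arrays. These are low beside the array medians of 24 h, 7.12 to 7.16, so the 48 h difference of DZIP3 is one between low values. FGL1 was 1.67 higher at 24 h and at -0.58 at 48 h. The count of 18 fell to 0 without cow8507 of 48 h to 2 without cow8620 and to 11 without cow8452 of 48 h, and rose to 91 without cow8609, of which 64 had a less negative or higher difference at 48 h and 27 a lower one. Time and cow cannot be told apart, as no cow was sampled at both times.

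**Figure D5:**
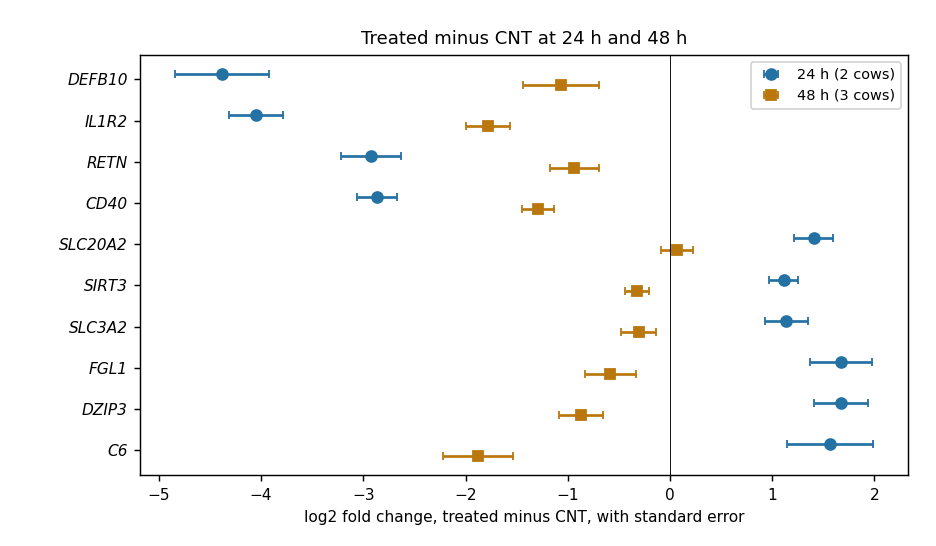
Log2 fold change of treated over CNT glands at 24 h (circles) and 48 h (squares), with standard errors from the limma fit of all 20 arrays, for the 10 called genes that have a symbol. DEFB10, IL1R2, RETN and CD40 (second probe set) lie further below 0 at 24 h than at 48 h. C6 lies at 1.57 at 24 h and at -1.88 at 48 h, in different cows whose NC levels of C6 also differed.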

How the data were processed

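RNA of 20 glands of 5 cows was hybridised to Affymetrix Bovine Genome Arrays, and 8 arrays of 24 h (2 NC, 2 CNT, 4 treated) entered the main comparison. The deposited values are log2 intensities that the authors made by RMA with the Bioconductor package affy; limma is also named in the submitters' processing notes, and versions are not given in the sources used here. Signal over background could not be judged from these values, and precision is limited by how few arrays there are. The replicate names of the labels are cow numbers.

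Of 24128 probe sets 112 controls were left out, and 13004 above the array median on at least 2 of the 8 arrays were tested. Gene symbols came from the platform annotation, updated through RefSeq gene IDs: 13292 probe sets had 1 symbol, 86 several and 10638 none, and 13263 were matched. Names are taken from probe sets with 1 symbol, and a gene with several was given by the one with the highest mean.

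Groups were compared with limma 3.58.1 in R 4.3.3 (lmFit, contrasts.fit, eBayes, with no term for the cow), and p-values were adjusted by Benjamini-Hochberg. Calls needed an adjusted p under 0.05 together with a change of 1 or more, up or down, on the log2 scale. The comparison with 48 h used all 20 arrays in 6 groups and 13873 probe sets. The fit was tested on simulated data whose arrays were independent, so that test did not cover glands that share a cow. Same-numbered samples come from the same animal, and their deviations from the group means correlated with r of 0.41 (NC and CNT), 0.76 (NC and treated) and 0.36 (CNT and treated), so the cow as a block is given as an alternative.

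Named genes were the 12 largest rises and falls, up to 4 called members of each gene list (or the 2 largest differences where none was called), genes discussed in the study and up to 5 per direction of the other comparisons; any other gene is described as chosen after its values were seen or is a marker. The comparison, the lists and the rule were chosen with earlier results of these data known. Alternatives covered the block, averaging, arrays in the fit, filters, normalization, thresholds and leaving out arrays or cows. The study's own fold changes were not used.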

Additional observations from a re-analysis of the deposited data

Results flagged for a closer look

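Among the 4 treated glands at 24 h, 1 value lay far from the other 3 for 11 of 129 genes examined, by Dixon's test, which chance alone gives in about 1 of 20 groups. In 6 of the 11 the left rear gland of cow8609 was the high one, with CXCL8 at 12.21, CCL2 at 10.96, CXCL5 at 8.40, CCL20 at 10.18, IL6 at 7.88 and ICAM1 at 10.24; the last 3 had been picked after their values were seen. The left rear gland of cow8620 was high for CYBA at 8.09 and IFITM1 at 11.05 and low for IGHM at 10.31. The right rear gland of cow8609 was high for NCAPH at 10.31 and low for CASP4 at 8.91. For the last 5 genes the gap between glands was under 1 on the log2 scale.

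The difference between treated and CNT glands was not the same at 48 h and 24 h for 18 probe sets, by the limma test of that difference. As 48 h less 24 h it was -3.44 for C6, -2.54 for DZIP3, -2.26 for FGL1, -1.44 for SLC3A2, -1.44 for the mitochondrial deacetylase SIRT3 and -1.34 for the phosphate transporter SLC20A2. It was 1.57 for the second probe set of CD40, 1.98 for RETN, 2.27 for IL1R2 and 3.32 for DEFB10. Probe sets without a symbol gave -2.25, -1.29, -1.18, -1.15, -1.08 and -1.03, and 2.09 and 2.12. SLC3A2, the heavy chain that pairs with SLC7A5, was 1.14 higher in treated glands at 24 h and at -0.31 at 48 h.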

How the results depend on the processing

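With the cow as a fixed replicate block, as the paired glands allow, 746 probe sets were called against the 593 reported, and 738 with the cow as a random block; all 593 were among both, and no gene named lost its call. The number was 92 with the treated glands of a cow averaged, 1441 with no minimum fold change, 253 at an adjusted p under 0.01 and 347 with 1 probe set per symbol, where fewer features are tested. Leaving out single arrays or cows gave 75 to 804, the lowest without cow8620 and the highest without the CNT gland of cow8609; without the CNT gland of cow8620 it was 249. The other settings, among them 1 fit of 20 arrays, other filters and median centring, gave 445 to 674. Renewed quantile normalization gave 65.0% lower calls against 72.5%. Against NC the count was 0 under every setting.

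For the difference between 48 h and 24 h the count was 120 with the cow as a random replicate block and 13 to 25 under the other fits. Leaving out 1 cow gave 0 to 91, the lowest without cow8507 and the highest without cow8609.

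No called gene changed direction. Among genes that were not called, IGHM turned to 0.030 with quantile normalization, and over the leave-outs IGHM ranged from -0.28 to 0.18, JCHAIN from -0.10 to 0.56, CLDN5 from -0.71 to 0.012 and CCL8 from -0.31 to 0.95. The causes of these shifts were not tested.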

Other observations

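Some tissue remodelling and stress genes were also called at 24 h, where 3.31% of all probe sets tested were called lower. Of 14 matrix proteases and inhibitors 5 were called lower in treated than in CNT glands and none higher. The urokinase gene PLAU was at 10.57 and 9.48 in CNT glands and between 6.52 and 7.42 in treated ones (-3.07, standard error 0.33, adjusted p = 0.00312), MMP19 fell by 2.65, and the protease inhibitor TIMP1 fell by 1.79. Of 22 collagen and matrix genes 2 were called, fibronectin FN1 (-2.09) and tenascin TNC (-2.07), and none of the collagens. Of 19 genes for BCL2 proteins, caspases and death receptors 3 fell, TNFRSF6B, a decoy receptor for FAS ligand (-2.14), and the inflammatory caspases CASP4 (-1.59) and CASP1 (-1.25). The endoplasmic reticulum chaperones CALR (-1.25), HSP90B1 (-1.07) and PDIA4 (-1.01, 1 of its 3 probe sets) fell, 3 of 24 in their list. HMOX1 (-1.72), GSR (-1.45) and TXN (-1.17) of the antioxidant list fell, 3 of 23. Of the reference genes given below 16.7% were called lower. The share was smaller in the chaperone (12.5%), antioxidant (13.0%), BCL2 and caspase (15.8%) and collagen (9.09%) lists. It was also smaller in the complement (15.8%), antigen processing (15.8%), IL-6, STAT3 and SOCS (13.3%), eicosanoid (10%) and T and NK cell (8.33%) lists. All of the named chaperone and antioxidant genes lost the call with the treated glands of a cow averaged.

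Of 19 genes of the glucocorticoid receptor and its targets, 5 were called lower and none higher. Metallothioneins MT1A and MT2A, which bind metals and also respond to inflammation, fell (-2.86 and -2.04), as did the kinase SGK1 (-1.66). MT1A was at 14.04 and 13.68 in CNT glands and between 10.50 and 11.34 in treated glands. FKBP5, a target often used to read glucocorticoid action, differed by -0.29 and was not called. By the labels 2 of the 4 treated glands received prednisolone, and the products were not compared here.

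Of 39 genes of the mitochondrial respiratory chain none was called (median -0.16), nor was any of 16 genes of cholesterol synthesis (median -0.05). Of 12 genes used as references for expression 2 were called lower, GAPDH (-1.28) and HPRT1 (-1.17). HPRT1 was at 12.02 and 12.00 in CNT glands and between 10.73 and 11.005 in treated ones, with NC glands at 10.70 and 10.62. Cell cycle genes gave 1 call of 12, CDK1 (1.08). Of 19 genes of antigen processing and presentation 3 were called lower, CTSS and the immunoproteasome subunits PSMB10 (-1.63) and PSMB9 (-1.05).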
